A study of Mus musculus with 12 samples.

Results

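The aldo-keto reductase 1C genes of the mouse (Akr1c6, Akr1c12, Akr1c13, Akr1c14, Akr1c18, Akr1c19, Akr1c20, Akr1c21 and Akr1cl) were followed in the aging testis. The 9 genes were taken by symbol out of 24516 genes with a symbol, and the reads of their 14 transcripts were summed per gene. They were proposed with their summed reads in view, so those totals are given as a description without a test. Earlier results of these data were also known by then, so calls of members between ages are not independent evidence. Testes of C57BL/6 mice labelled wild type were compared at post natal months 3, 6, 12 and 18 (3M, 6M, 12M and 18M), with 3 mice at each age and 1 library of total RNA per mouse, depleted of ribosomal RNA. All groups shared strain, tissue and genotype and differed by age. The tissue was whole testis, which mixes germ cells, Sertoli cells, Leydig cells and others, so that fewer cells of a type and less RNA per cell cannot be told apart.

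Enzymes of this family use NADPH or NADH to reduce a ketone on a steroid or another carbonyl compound to a hydroxyl group, or run the reaction backwards. In steroid-producing tissues they set how much active androgen or progestin remains beside its weaker metabolites. Akr1c6 is the type 5 17beta-hydroxysteroid dehydrogenase, Akr1c14 a 3alpha-hydroxysteroid dehydrogenase, Akr1c18 the 20alpha-hydroxysteroid dehydrogenase that breaks down progesterone, and Akr1c21 a 3(17)alpha-hydroxysteroid dehydrogenase.

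In the authors' assemblies on mm10, 8 of the genes lay side by side on chromosome 13 (chr13:4059591-4586543, a span of 527 kb), while Akr1cl lay alone on chromosome 1 (chr1:65013078-65032759, minus strand). Over the 36 pairs of coding sequences (GENCODE vM21), nucleotide identity ranged from 68.6% to 96.2% with a median of 73.8%. Only 2 pairs exceeded 90%, Akr1c12 with Akr1c13 at 96.2% (37 differing positions of 969) and Akr1c6 with Akr1c20 at 92.3%. Akr1c12 (minus strand, 9 exons) was the only member called between ages and Akr1c13 (plus strand, 9 exons in its RefSeq form) is its nearest copy, and the stretch of their coding sequence with the most differences is shown because it is where reads tell the copies apart. It spans exons 3 and 4, at chr13:4274384-4275802 on the minus strand for Akr1c12 and chr13:4194715-4196473 on the plus strand for Akr1c13, and capitals mark the 14 of 120 bases that differ.
Akr1c12: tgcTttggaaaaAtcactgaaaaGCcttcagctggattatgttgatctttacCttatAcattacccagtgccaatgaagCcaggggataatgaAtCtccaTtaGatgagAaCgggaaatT
Akr1c13: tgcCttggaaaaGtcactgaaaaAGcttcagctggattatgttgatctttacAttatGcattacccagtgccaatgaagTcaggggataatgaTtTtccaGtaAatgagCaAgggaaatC
The longest stretch without a difference ran over 228 bases from exon 1 into exon 3 (chr13:4275832-4279323, minus strand, in Akr1c12 and chr13:4191260-4194685, plus strand, in Akr1c13), and is shown because reads of 101 bases that fall inside it fit both genes equally.
Akr1c12 and Akr1c13: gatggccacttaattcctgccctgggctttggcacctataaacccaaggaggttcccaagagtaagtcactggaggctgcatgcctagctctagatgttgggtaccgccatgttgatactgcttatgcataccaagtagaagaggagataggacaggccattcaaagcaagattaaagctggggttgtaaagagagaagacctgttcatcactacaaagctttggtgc
Of the 1162 windows of 100 bases in the Akr1c12 transcript, 134 were also found in Akr1c13, and no such window was shared among the other 7 genes. How the quantification divided reads from the shared stretch is an estimate, and values of Akr1c12 and Akr1c13 are uncertain to that extent.

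Akr1cl was by far the most abundant member, followed by Akr1c13 and Akr1c12, and Akr1c6 and Akr1c18 were listed at 0 reads in all 12 libraries. Akr1cl held 50644 of the 56298 reads of the family, Akr1c13 held 3272, Akr1c12 held 1386, Akr1c14 held 556, Akr1c19 held 368, Akr1c21 held 62 and Akr1c20 held 10. Per length, in FPKM (fragments per length of transcript and per depth of library), the means over the 12 mice were 51.4 for Akr1cl, 3.47 for Akr1c13, 1.52 for Akr1c12, 0.953 for Akr1c19, 0.313 for Akr1c14, 0.0664 for Akr1c21 and 0.00739 for Akr1c20. Akr1cl stood above Akr1c13 in 12 of 12 mice, with its lowest mouse at 33.0 FPKM against a highest of 4.28 for Akr1c13. Akr1c13 stood above Akr1c12 in 12 of 12 mice, although the lowest FPKM of Akr1c13 (2.96) was close to the highest of Akr1c12 (2.44). Akr1c12 stood above Akr1c19 in 9 of 12 mice, and their ranges overlapped within 3M and within 6M but not within 12M (1.51 to 1.95 FPKM for Akr1c12 against 0.759 to 1.45 for Akr1c19) or within 18M (2.25 to 2.44 against 0.884 to 1.54). Akr1c19 stood above Akr1c14 in 11 of 12 mice, again with overlapping ranges, and Akr1c14 stood above Akr1c21 in 12 of 12.

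**Figure D1:**
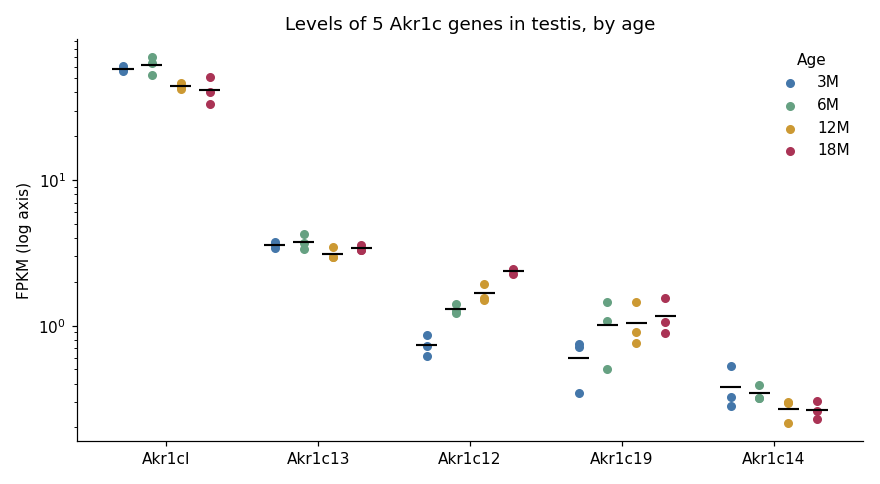
FPKM on a log axis of the 5 family members with enough reads to be tested, with a point for each mouse, a colour for each age and a black bar for the mean of 3 mice. Akr1cl lies between 33.0 and 69.8 FPKM, far above the other genes, and only Akr1c12 is higher at each age than at the age before without overlap.

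Akr1c12 rose with age, and no other member passed the test in any comparison. In CPM (counts scaled to a common library size with TMM factors), its level in the 3M mice was 0.817, 1.14 and 0.970, and in the 6M mice 1.66, 1.87 and 1.60. The 12M mice had 1.99, 2.61 and 2.03 CPM, and the 18M mice 3.15, 2.97 and 3.23 CPM. Every mouse of an age lay above every mouse of the age before it, so the 4 ages did not overlap at any step. Of 25166 genes and assembled loci tested over all ages, 4 (0.0159%) showed this complete upward order, and Akr1c12 was the only one of them with a gene symbol, the others being unnamed assembled loci. Mean levels were 0.977 ± 0.164 CPM at 3M and 3.12 ± 0.132 CPM at 18M (SD, n = 3 each). The 3M levels rested on 43, 65 and 56 estimated reads.

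Between 3M and 18M, the difference in Akr1c12 was a log2 fold change of 1.67 (SE 0.15, 95% interval 1.31 to 2.03), a 3.18-fold higher level, with an adjusted p of 0.0278 in edgeR's quasi-likelihood test with Benjamini-Hochberg adjustment. It was 1 of the 5 members that passed the filter on low counts, against 14 of 24809 genes called in the whole table (0.0564%), of which 8 were higher at 18M (0.0322%). At an unadjusted p of 0.05 or less, 3 of the 5 members differed, against 12.0% of genes. In the fit of the slope on age over all 12 mice, Akr1c12 rose by 0.10 on the log2 scale per month (SE 0.01, edgeR adjusted p = 0.00498), again as the only member called, against 43 of 25166 genes (0.171%), of which 14 rose (0.0556%). At an unadjusted p of 0.05 or less, 3 members had a slope, against 15.3% of genes. The study had selected Akr1c12 for its rise in these same mice, so these calls are not independent evidence of its direction. With 3 mice per age, the adjusted p between 3M and 18M was sensitive to single libraries. Without 3M mouse 1, 3M mouse 3, or 18M mouse 1, 2 or 3 it was 0.0694, 0.107, 0.0798, 0.0706 and 0.0925 with edgeR, while the log2 fold change stayed between 1.56 and 1.80. The call was also lost with transcripts of class = only (edgeR adjusted p = 0.0590) and with limma on log2(FPKM + 1), where the log2 fold change was 0.96. The slope of Akr1c12 passed the test without any 1 of the 12 libraries, with edgeR adjusted p between 0.00429 and 0.0326.

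No member passed the test between neighbouring ages with edgeR, against 14 of 24774 genes called from 3M to 6M (0.0565%), 8 of 24791 from 6M to 12M (0.0323%) and 5 of 24854 from 12M to 18M (0.0201%). At an unadjusted p of 0.05 or less, 1 of the 5 members differed in each of these steps, against 3.92%, 7.54% and 3.52% of genes in the same order, and DESeq2 called 0 members in all of them. The estimated log2 fold change of Akr1c12 was 0.80 (SE 0.18) from 3M to 6M, 0.37 (SE 0.16) from 6M to 12M and 0.50 (SE 0.14) from 12M to 18M.

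**Figure D2:**
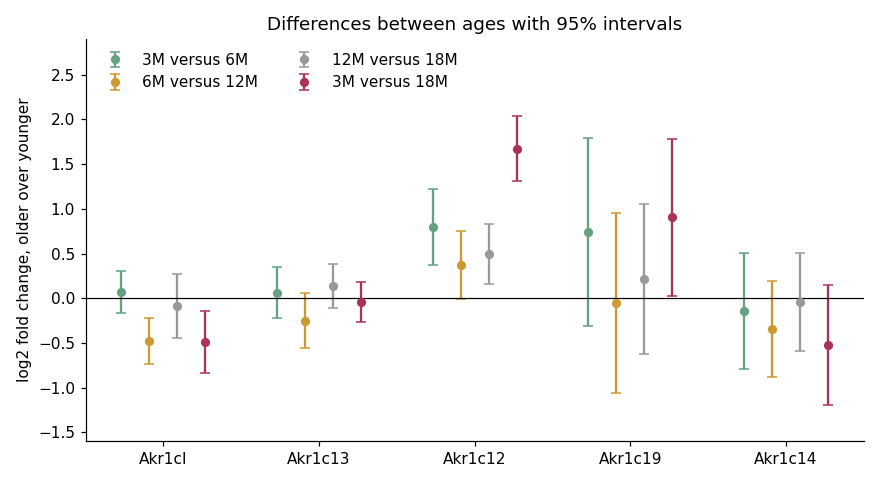
Log2 fold change, older over younger age, of the 5 tested members in 4 comparisons of ages, with points for the edgeR estimate and bars for its 95% interval. The estimates of Akr1c12 lie above 0 in all 4 comparisons, with 1.67 between 3M and 18M as the only call. Its interval from 6M to 12M, -0.0063 to 0.75, includes 0. The estimates of Akr1c13 lie between -0.25 and 0.14.

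Akr1c13, the near copy of Akr1c12, did not pass the test in any comparison. It measured 4.71, 5.18 and 4.90 CPM in the 3M mice and 5.04, 4.60 and 4.68 CPM in the 18M mice, and these ranges overlapped. Its log2 fold change was -0.05 (SE 0.09, 95% interval -0.27 to 0.18, edgeR adjusted p = 0.868). Of the reads of both genes together, Akr1c12 held 14.8%, 18.1% and 16.5% in the 3M mice, and 38.5%, 39.3% and 40.8% in the 18M mice. The share lay between at the other ages, at 24.3%, 28.8% and 21.7% in the 6M mice and at 32.3%, 35.6% and 32.9% in the 12M mice, with no overlap between any pair of ages. A two-sided exact permutation test of the share between 3M and 18M gave p = 0.1, and 3 mice against 3 allow no smaller value (0.188 adjusted over the 15 values tested this way). The summed level of the pair was 5.91 ± 0.397 CPM at 3M and 7.89 ± 0.310 CPM at 18M (SD, n = 3 each). Within Akr1c13, the RefSeq form had a log2 fold change of -0.38 (SE 0.20, edgeR adjusted p = 0.922 among all transcripts). Its assembled isoform had 0.29 (SE 0.25, edgeR adjusted p = 0.964). Whether reads were divided differently between the 2 genes at different ages was not tested.

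**Figure D3:**
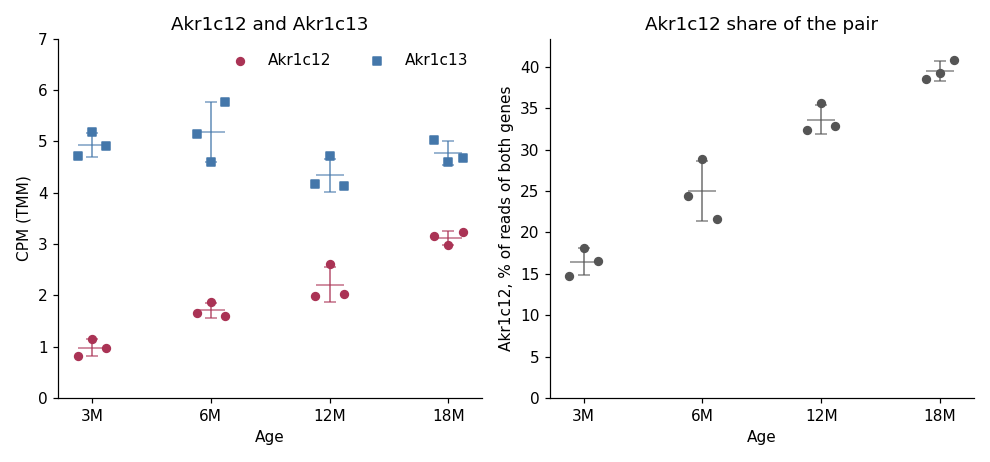
Left, CPM of Akr1c12 and Akr1c13 by age, with a point for each mouse and the mean ± SD of 3 mice; right, reads of Akr1c12 as a percent of the reads of both genes. Akr1c12 climbs from 0.977 to 3.12 CPM on average while Akr1c13 remains between 4.14 and 5.78 CPM in all mice, and the share goes from 16.5% to 39.5%.

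The rise of Akr1c12 was found in every exon, but its size differed along the transcript. Mean coverage, scaled to equal library size, was higher at 18M than at 3M without overlap between mice in 9 of its 9 exons, with ratios of the means from 1.80 to 5.85. The smallest ratios, 2.16 in exon 1 and 1.80 in exon 2, fell in the exons that hold most of the stretch shared with Akr1c13. Over exons 4 to 9, outside that stretch, Akr1c12 coverage was 3.52 ± 0.499 reads per base at 3M and 14.0 ± 0.618 at 18M (SD, n = 3 each), a ratio of 3.98 with no overlap between mice. Akr1c13 coverage over its matching exons averaged 20.1 reads per base at 3M and 19.4 at 18M, a ratio of 0.962 with overlapping mice. These exons were chosen after seeing the data. The two-sided exact permutation test of Akr1c12 coverage over them gave its lowest possible p of 0.1 (0.188 adjusted over 15 values). Coverage of the first exon of Akr1c12 over its last averaged 2.56 at 3M and 1.16 at 18M, with overlapping mice. For this ratio the two-sided exact permutation test gave p = 0.2 (0.333 adjusted over 15 values). Over all reads of Akr1c12 the difference was 3.18-fold. The parts of the shared stretch and of the lower first to last exon ratio in these differences were not tested.

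**Figure D4:**
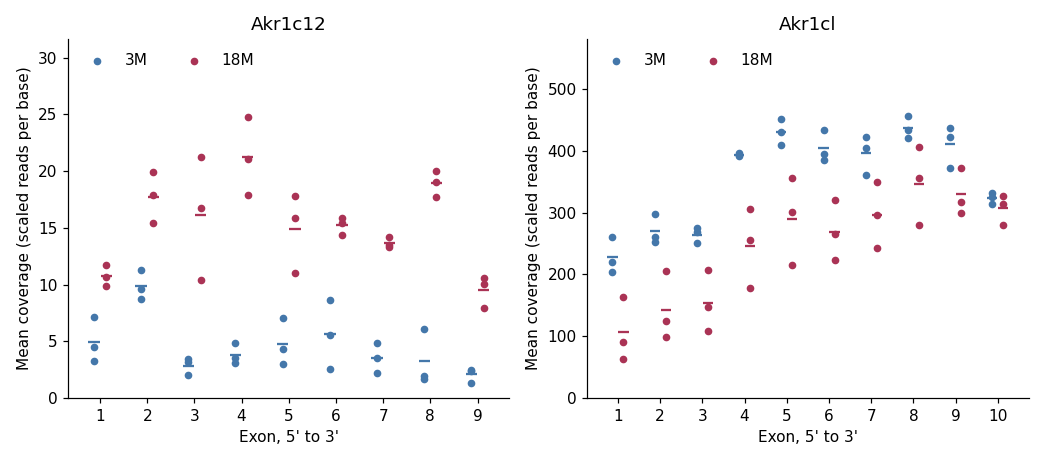
Mean coverage of each exon, scaled to equal library size, for Akr1c12 (left) and variant 1 of Akr1cl (right), with points for 3M and 18M mice and bars for the means. In Akr1c12 the 18M mice exceed the 3M mice in 9 of 9 exons; in Akr1cl they are lower without overlap in 9 of 10 exons, with a ratio from 0.466 in exon 1 to 0.949 in exon 10.

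Although their levels took different courses, Akr1c12 and Akr1c13 had near-identical sequence before their RefSeq starts (GRCm38.p6), which are the starts meant here. GENCODE vM21 places the starts further upstream, at chr13:4279433 for Akr1c12 and chr13:4191150 for Akr1c13, within the bases shown. The 150 bases lined up below, which end at the base before the start of Akr1c12 (chr13:4279400-4279549, minus strand) and 3 bases further upstream in Akr1c13 (chr13:4191034-4191183, plus strand), differed at 7 positions, marked in capitals.
Akr1c12: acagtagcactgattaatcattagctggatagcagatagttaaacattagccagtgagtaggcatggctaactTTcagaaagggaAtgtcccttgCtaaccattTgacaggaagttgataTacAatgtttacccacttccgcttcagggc
Akr1c13: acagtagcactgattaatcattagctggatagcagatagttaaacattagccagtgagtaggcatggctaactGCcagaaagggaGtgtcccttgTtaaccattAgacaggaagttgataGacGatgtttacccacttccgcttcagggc
Promoters from 250 bases before to 50 bases after the start were matched for 8 of the 9 genes, all but Akr1c20. On either strand, TATAAA was found in Akr1c6 only (13.6% of all 32851 promoters hold it), AGGTCA in Akr1c18 only (16.3% of all), and TGACNNNGC in Akr1c19 and Akr1cl (12.4% of all). None of these letters stood in the windows of Akr1c12 and Akr1c13.

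Akr1cl, the abundant member on chromosome 1, was lower in the old mice but did not pass the test. It measured 82.2, 88.1 and 85.0 CPM in the 3M mice and 76.7, 92.7 and 100.4 CPM in the 6M mice. In the 12M mice it was at 63.7, 68.5 and 61.0 CPM, and in the 18M mice at 74.5, 59.3 and 48.6 CPM. All 18M mice lay below all 3M mice, and the 18M mice were the most widely spread of the older groups. An absence of overlap in this direction between 3M and 18M was found in 9.83% of all genes, and in the opposite direction, as for Akr1c12 and Akr1c19, in 9.72%. The log2 fold change of Akr1cl between 3M and 18M was -0.49 (SE 0.15, edgeR adjusted p = 0.355) and its slope -0.04 per month (SE 0.01, edgeR adjusted p = 0.123). With DESeq2 the adjusted p between 3M and 18M was 0.0281, and the log2 fold change of -0.49 was under the minimum for a call. Without 18M mouse 1 the slope passed the test at -0.05 per month (edgeR adjusted p = 0.0235). DESeq2 also called the slope over all mice (adjusted p = 0.00214), as 1 of 565 genes called among 29895.

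The lower reading of Akr1cl was uneven along the transcript. Its ratio of 18M to 3M coverage was 0.466 in exon 1, 0.626 in exon 4, 0.747 in exon 7 and 0.949 in exon 10, and exon 10 was the only exon in which the mice of both ages overlapped. The coverage of its first exon over its last was 0.647, 0.789 and 0.675 in the 3M mice and 0.502, 0.289 and 0.227 in the 18M mice, which did not overlap. The exact permutation test of this ratio, run on both sides, likewise stopped at its lowest possible p of 0.1 (0.188 adjusted over 15 values). Over 1277 transcripts of genes with a single transcript, the median of the same ratio was 0.673 to 0.795 in the 3M mice and 0.576 to 0.742 in the 18M mice, and it was lower at 18M in 80.1% of them. Only 0.783% of these transcripts had a larger drop than Akr1cl, whose change was -1.05 on the log2 scale against a median of -0.17. The part of this coverage shift in the lower Akr1cl reads was not tested. Variant 2 of Akr1cl held 1.47% to 6.20% of its reads, so that the values above are in the main those of variant 1.

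**Figure D5:**
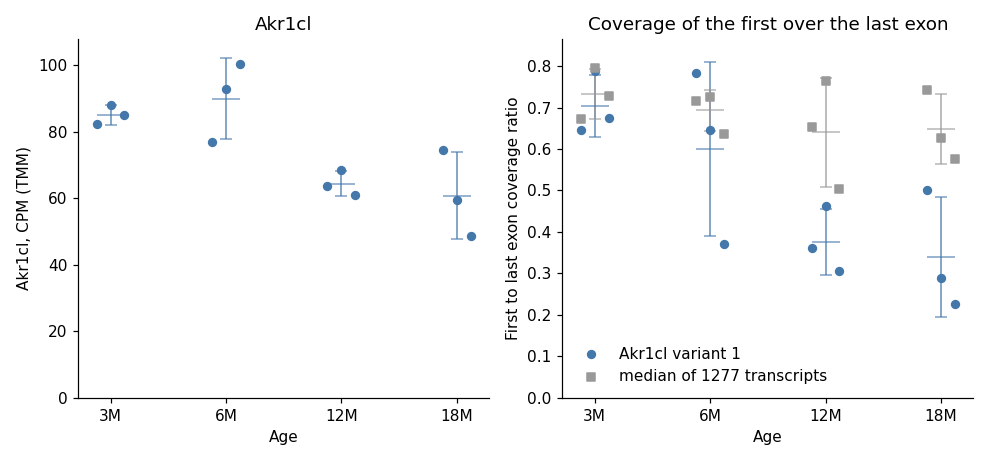
Left, CPM of Akr1cl by age; right, coverage of the first over the last exon for Akr1cl variant 1 and as the median of 1277 transcripts, with a point for each mouse and the mean ± SD of 3 mice. Akr1cl averages 85.1 CPM at 3M and 60.8 CPM at 18M, and its coverage ratio averages 0.704 at 3M and 0.339 at 18M.

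Akr1c12 was higher in the old mice and Akr1cl lower, although edgeR did not call Akr1cl, and the make-up of the family's reads was described at these ages. Akr1cl held 91.7% to 92.3% of the family's reads in the 3M mice and 84.2% to 88.2% in the 18M mice. The 8 genes without Akr1cl summed to 7.38 ± 0.538 CPM at 3M and 9.35 ± 0.493 CPM at 18M, whereas all 9 genes summed to 92.5 ± 3.52 and 70.1 ± 13.4 CPM (SD, n = 3 each). For the share and for both sums, the two-sided exact permutation test gave its lowest possible p of 0.1 (0.188 adjusted over 15 values).

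The 3alpha-hydroxysteroid dehydrogenase Akr1c14 was near 1 CPM. Its 3M mice were at 0.855, 1.37 and 0.745 CPM and its 18M mice at 0.793, 0.681 and 0.601 CPM, with overlapping ranges. The log2 fold change was -0.52 (SE 0.28, edgeR adjusted p = 0.490), with an interval from -1.19 to 0.15. Akr1c19 was lower still, at 0.418, 0.211 and 0.416 CPM in the 3M mice and 0.881, 0.511 and 0.573 CPM in the 18M mice. These ranges did not overlap, but the log2 fold change of 0.91 (SE 0.37, interval 0.03 to 1.78) had an edgeR adjusted p of 0.410. Most Akr1c19 reads, 70.6% to 100% in the single mice, were assigned to a short assembled isoform of 3 exons (chr13:4245286-4248360, plus strand), and its RefSeq form of 9 exons received 0 to 13 reads per library. The study counted the short isoform among transcripts that changed in these mice, so its direction is not independent evidence either.

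Akr1c21, the 3(17)alpha-hydroxysteroid dehydrogenase known from kidney, had 0 to 14 reads per library, and Akr1c20 had 0 to 4. The progesterone-degrading Akr1c18 and the 17beta-hydroxysteroid dehydrogenase Akr1c6 had 0 of 682134393 estimated reads in all, which allows up to 0.0044 CPM over the 12 libraries. A count of 0 in a single library allows up to 0.0418 to 0.0589 CPM (3 reads), and these limits cover counting error only. They take each read as independent. The paper reports paired-end sequencing, so both mates of a fragment can enter the estimated counts, and the limits are too low where they do. These 4 genes did not pass the filter on low counts. Without that filter Akr1c20 and Akr1c21 entered the edgeR tests and neither was called, and Akr1c6 and Akr1c18 could not be compared.

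At the level of single transcripts, 7 of the 14 member transcripts passed the filter and 0 were called between 3M and 18M by edgeR, against 59 of 54472 transcripts (0.108%). At an unadjusted p of 0.05 or less 2 of the 7 differed, against 5.40% of all transcripts. DESeq2 called 1 of 10 member transcripts, against 1263 of 66290 transcripts. The only Akr1c12 transcript, NM_013777, had a log2 fold change of 1.66 (SE 0.20) and an edgeR adjusted p of 0.148 among all transcripts. The split of Akr1c13 between its RefSeq form and an assembled isoform with an additional exon was unsteady, with 19.8% to 62.9% of its reads given to the assembled form in single mice.

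Other aldo-keto reductases, other steroid oxidoreductases, genes of steroid synthesis and its control, and neighbours on chromosome 13 were read in the same tests. Of the other aldo-keto reductases, 0 of 7 tested genes passed the edgeR test between 3M and 18M or in the slope, with 0 and 1 at an unadjusted p of 0.05 or less, and a median log2 fold change of 0.04 against 0.01 over all genes. Of other steroid oxidoreductases, 0 of 16 passed between 3M and 18M and 0 of 18 in the slope, with 5 at an unadjusted p of 0.05 or less in each and a median log2 fold change of -0.18. DESeq2 called 0 genes in both lists between 3M and 18M, and in the slope 0 of the former and 3 of the latter (Hsd17b11, Hsd17b3 and Hsd3b6), all lower with age. Among 16 genes of steroid synthesis and its control, 2 fell in the slope on age and 0 rose by edgeR, with 11 at an unadjusted p of 0.05 or less, while DESeq2 called 6 as lower with age (Cyp11a1, Cyp17a1, Hsd17b3, Hsd3b6, Lhcgr and Star). Those called by edgeR were Cyp17a1, which makes the androgen precursors, with a slope of -0.10 on the log2 scale per month (SE 0.01, edgeR adjusted p = 0.000118), and Cyp11a1, which cuts the cholesterol side chain, with a slope of -0.11 per month (SE 0.01, edgeR adjusted p = 0.00498). Cyp17a1 averaged 151.5 ± 32.8 CPM at 3M and 55.7 ± 6.83 CPM at 18M, and Cyp11a1 67.6 ± 13.3 and 23.2 ± 8.72 CPM (SD, n = 3 each), both without overlap. Both were also chosen by the study on these mice. Between 3M and 18M edgeR called 0 of these 16 genes, with 11 at an unadjusted p of 0.05 or less, and DESeq2 called 3 as lower (Cyp17a1, Cyp11a1 and Lhcgr). Of 11 tested genes inside or within 500 kb of the family's span on chromosome 13, 0 passed either edgeR test, with 2 and 1 at an unadjusted p of 0.05 or less, 0 calls by DESeq2 and a median log2 fold change of -0.01 between 3M and 18M.

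Markers of testis cell types gave the setting of these changes. The 9 Leydig cell markers, which include Cyp17a1 and Cyp11a1, summed to 911 to 1093 CPM in the 3M mice, 856 to 1378 in the 6M mice, 666 to 731 in the 12M mice and 583 to 797 in the 18M mice. Their median log2 fold change between 3M and 18M was -0.83, and 8 of the 9 had an unadjusted p of 0.05 or less both in that comparison and in the slope, where edgeR called 2 and DESeq2 called 6. Their sum thus moved in the direction of Akr1cl and against Akr1c12, and its part in either was not tested. The 9 Sertoli cell markers summed to 857 to 872 CPM at 3M and 840 to 875 CPM at 18M, and the 5 spermatocyte markers to 882 to 958 and 896 to 909 CPM. From 3M to 18M, the sums went from 57.4 to 62.5 CPM to 50.3 to 58.3 CPM for macrophage markers, from 30.7 to 35.5 CPM to 28.4 to 30.9 CPM for endothelial markers, and from 64.8 to 80.0 CPM to 49.1 to 68.7 CPM for peritubular myoid markers. Spermatogonia markers summed to 81.6 to 89.1 and 79.3 to 81.3 CPM at these ages, the 6 spermatid markers to 12437 to 13747 and 12847 to 15510 CPM, adipocyte markers to 9.17 to 10.3 and 9.72 to 10.5 CPM, and blood markers to 14.1 to 23.6 and 9.28 to 34.2 CPM. Epididymis markers, a check for adjoining tissue, summed to at most 0.695 CPM in any mouse with Lcn5 at 0 reads in every library. Over the 10 marker lists other than the Leydig list, edgeR called 0 genes between 3M and 18M and 0 in the slope, with 4 and 8 at an unadjusted p of 0.05 or less, and DESeq2 called 0 and 2, the latter being the spermatid genes Acrv1 and Spaca1, both higher with age.

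As a description over the 12 libraries, the genes whose log2(CPM + 1) most resembled that of each member were listed among 15335 genes with a mean of 1 CPM or more. For Akr1c12 they were Igfn1 (Pearson r = 0.916), Fetub (r = 0.913), which encodes the fetuin B inhibitor of metalloproteases, and Pim1 (r = 0.904), a serine/threonine kinase. Fetub was at 0.685 ± 0.269 CPM at 3M and 6.74 ± 1.65 CPM at 18M, and Pim1 at 94.0 ± 3.76 and 104.9 ± 1.49 CPM (SD, n = 3 each). For Akr1cl they were Abca1 (r = 0.972), the cholesterol efflux transporter, Glb1l2 (r = 0.970) and Tmem164 (r = 0.966). For Akr1c13 they were 1600014C10Rik (r = 0.929), Kitl (r = 0.925), which encodes the ligand of the Kit receptor, and Ubqln2 (r = 0.916). All libraries share the 4 ages, so genes that differ between ages resemble each other by that alone.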

How the data were processed

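Testis RNA of 12 mice was sequenced, with 3 mice labelled as biological replicates at each of 4 ages. Per the labels and file headers, the authors aligned reads to mm10 with HISAT2, and StringTie 1.3.3b built the transcripts, merged them over libraries and estimated their levels. Counts deposited by the authors are estimated counts, that is, the product of mean coverage and length divided by the read length of 101 and rounded up, which held within 1 read in all 71967 transcripts. They were used as they are. The deposited FPKM values are scaled to the depth of each library, and no further scaling between libraries was applied to them. Exon coverage was read from the deposited assemblies. Summed over all assembled transcripts, the estimated counts came to 50924104 to 71803379 per library (median 56236682), which is not the number of reads sequenced. Counting error is small beside the spread of mice for Akr1cl and large for members under 100 reads. Strand was not used in the counting as far as the sources used here state.

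Counts were summed per gene over transcripts of class =, c, j and o (other transcripts per assembled locus, 31766 features in all) and tested by the quasi-likelihood method of edgeR 4.0.16 (R 4.3.3) after filterByExpr, with TMM factors of 0.986 to 1.02 and Benjamini-Hochberg adjustment over all features. A pairwise fit held the 6 libraries it compared. A gene was called at an adjusted p of 0.05 or less, and pairs of ages also required an absolute log2 difference of at least 1. DESeq2 1.42.0 and limma 3.58.1 on log2(FPKM + 0.1) and log2(FPKM + 1) were alternatives, as were other filters, scalings, classes, a replicate block and leaving out each library. Exact permutation tests covered single values of 3 mice against 3. The first to last exon ratio used genes with 1 transcript, 5 or more exons and a mean coverage of 10 or more at both ends. Coding sequences came from GENCODE vM21, and the planned comparison of protein sequences was made on coding sequences instead. The edgeR and DESeq2 tests on genes, for 3M against 18M and for the slope, were tested on simulated data with 200 changed genes. All members were named; from the lists, called genes were named, and for likeness of pattern the 3 genes with the highest correlation for each member with a mean of 1 CPM or more. The members and lists were chosen with earlier results of these data known. Remaining steps ran in Python 3.11.15 (numpy 2.4.6, pandas 2.3.3, Biopython 1.88, matplotlib 3.10.9).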

Additional observations from a re-analysis of the deposited data

How the results depend on the processing

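The call of Akr1c12 between 3M and 18M (1 member) fell to 0 members with a replicate block, with transcripts of class = only (edgeR adjusted p = 0.0590) and with limma on log2(FPKM + 1), where the log2 fold change of 0.96 was under the minimum; without single libraries 0 to 1 members were called. Its log2 fold change was 0.96 to 1.99 and its adjusted p 2.89e-09 to 0.406 over all alternatives. The slope on age called 1 member in all but 3 settings, with 2 under DESeq2, 3 at an unadjusted p and 1 to 2 without single libraries. DESeq2 called 1 member transcript in place of 0. No tested member changed direction between 3M and 18M or in the slope in any alternative, and the 3 steps between neighbouring ages called 0 members throughout. The replicate numbers did not pair the mice (correlations of same-numbered deviations of -0.08 to 0.09 over 18 pairs of libraries), so the block (0 members and 0 genes called, Akr1c12 adjusted p = 0.406, log2 fold change 1.68) rests on a shared number only. Counts of all genes called moved from 14 to between 0 and 210 for 3M against 18M (69 with DESeq2, 22 with all libraries in 1 fit), from 43 to between 13 and 3861 for the slope (565 with DESeq2, 22 with the block), from 14 to between 4 and 169, from 8 to between 2 and 201 and from 5 to between 1 and 124 for the neighbouring steps in order of age, and from 59 to between 0 and 1263 for transcripts. The upper ends come from unadjusted p-values, or DESeq2 for transcripts. The coverage of exons 4 to 9 of Akr1c12, a choice made after seeing the data, gave a log2 ratio of 1.99. Akr1c19 rested on 12 to 50 reads per library, Akr1c14 on 35 to 78 and Akr1c12 on 43 to 231, with 43, 65 and 56 in the 3M mice. Relative counting error was largest for Akr1c19 among the tested members. The 3M reads of Akr1c12 lay within the range of Akr1c14.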
